A study of Rattus norvegicus with 8 samples.

Results

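The genes described here encode proteins that neutrophils store in quantity: the calprotectin subunits S100a8 and S100a9, and 8 genes of granule proteins, namely Mpo, Elane, Ltf, Lcn2, Camp, Ngp, Mmp8 and Mmp9. They are 10 of the 17446 genes in the deposited counts of rat whole blood, taken by gene name, and all 10 names were found. The list was drawn up with earlier results of these libraries known, among them a low Ngp after treatment in one of the models, so the members count as chosen by their change after treatment. That change is therefore given as a description with no test.

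Calprotectin is a calcium- and metal-binding complex of S100a8 and S100a9 that fills the cytosol of the mature neutrophil. The granule genes are transcribed in the bone marrow, in an order that follows the maturation of the cell: azurophil granule genes first, then specific granule genes, then gelatinase granule genes. A neutrophil in blood therefore carries the granule proteins but has largely stopped making most of their mRNAs. Transcripts of specific granule genes in blood are commonly read as a mark of immature or recently released neutrophils, whereas S100a8 and S100a9 mRNAs stay abundant in mature cells.

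The study asked how Chios mastic gum (CMG), the resin of a Mediterranean mastic tree, changes gene expression in the circulation of hypertensive rats. All animals were male wild-type Wistar rats, 12 to 14 weeks of age at the start. The AngII groups had angiotensin II infused subcutaneously at 0.4 mg/kg per day and were sampled at week 1 (before CMG) or at week 5, when CMG had been given for 4 weeks at 220 mg/kg. The DOCA–HS groups received deoxycorticosterone acetate at 100 mg/kg per week and drank water with 0.9% NaCl and 1% KCl. They were sampled at week 3 (before CMG) or at week 7, with the same course of CMG. Each of the 4 groups held 2 libraries, labelled replicates 1 and 2, from CMG arms of 5 rats (AngII) and 6 rats (DOCA–HS). The series held no library of rats sampled at week 5 or week 7 without CMG. Therefore CMG, longer exposure to the model and age cannot be told apart in any change after treatment. The same holds for the pumps, which are stated to deliver for 4 weeks, so the week 5 sample may fall after the end of the infusion. The methods describe blood sampling of the rats at each time, the labels give cardiac puncture into heparin for both times, and no source used here ties a library before CMG to one after as the same rat. Nor is it stated that the replicates came from separate animals, and p-values then measure only the spread between these samples.

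The libraries held 4149104 to 13205565 counts, of which 61.9% to 84.3% fell on 2 hemoglobin genes, leaving 651764 to 4490083 counts for all other genes. DOCA–HS after replicate 2 stood apart. It had the lowest total, the highest hemoglobin share and 2686 genes with at least 10 counts, against 6097 to 8280 in the other 7 libraries. Every DOCA–HS value after CMG is therefore given for both libraries, and the main ones also without it. Levels are CPM scaled by trimmed mean of M-values (TMM) factors, called normalized CPM, and describe 1 gene across libraries. No transcript lengths were used, so levels of different genes are not ranked. In bulk blood, fewer cells of a type and less RNA per cell cannot be told apart.

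The promoters of the 4 specific granule genes that passed the filter on low counts are shown because Lcn2, Ngp and Mmp8 had the lowest changes below, with Camp set beside them, and because the C/EBP factors, C/EBP-epsilon above all, are known to drive such genes during neutrophil maturation. The RefSeq promoter table (rat assembly GRCr8) held 7 of the 10 members, namely S100a9, Mpo, Ltf, Lcn2, Camp, Ngp and Mmp8. Each sequence is the 250 bases before the gene start on the gene's strand, 5′ to 3′, and capitals mark every match to the C/EBP motif TTGCNNAA on either strand. They lie at chr8:119272355-119272604 (Ngp, plus strand), chr3:36081781-36082030 (Lcn2, minus strand), chr8:13008640-13008889 (Mmp8, plus strand) and chr8:118721999-118722248 (Camp, minus strand).
Ngp: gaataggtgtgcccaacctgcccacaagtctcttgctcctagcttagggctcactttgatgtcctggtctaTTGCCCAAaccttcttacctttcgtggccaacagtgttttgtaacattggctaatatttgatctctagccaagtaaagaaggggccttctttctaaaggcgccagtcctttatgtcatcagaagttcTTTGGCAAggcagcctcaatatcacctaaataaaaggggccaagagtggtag
Lcn2: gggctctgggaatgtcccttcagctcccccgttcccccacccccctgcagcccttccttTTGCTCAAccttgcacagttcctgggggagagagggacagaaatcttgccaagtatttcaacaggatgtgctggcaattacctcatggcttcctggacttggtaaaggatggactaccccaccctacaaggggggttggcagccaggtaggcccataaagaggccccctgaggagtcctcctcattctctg
Mmp8: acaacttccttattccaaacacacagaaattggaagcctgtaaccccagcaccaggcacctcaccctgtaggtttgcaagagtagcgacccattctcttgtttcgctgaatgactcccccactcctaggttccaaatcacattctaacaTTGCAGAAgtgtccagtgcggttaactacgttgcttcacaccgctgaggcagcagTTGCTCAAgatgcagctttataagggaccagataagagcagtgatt
Camp: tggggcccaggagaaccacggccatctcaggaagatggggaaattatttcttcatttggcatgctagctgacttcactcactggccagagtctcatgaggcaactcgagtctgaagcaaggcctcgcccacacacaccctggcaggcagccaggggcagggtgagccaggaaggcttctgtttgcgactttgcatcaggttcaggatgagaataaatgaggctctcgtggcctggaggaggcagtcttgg

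The motif was present in Lcn2 once, 191 to 184 bases before the start. In Ngp it matched at 179 to 172 bases and, on the opposite strand, at 52 to 45 bases, and in Mmp8 at 101 to 94 and 46 to 39 bases. Camp, S100a9, Mpo and Ltf had no match in this window, so 3 of 7 members held one, against 9.22% of 33469 promoters of the same length. Those 3, Lcn2, Ngp and Mmp8, were also the members lower in both DOCA–HS libraries after CMG than in both before. This was seen after the values were known and was not tested. For Lcn2 the order rests on 1 count after CMG, and Mpo and Ltf did not pass the filter on low counts. The PU.1 motif GAGGAAG, which overlaps no C/EBP match here, was found in Mpo alone of the 7 (10.2% of all promoters). The TATA motif TATAAA was found in S100a9 and Mmp8 (12.9% of all promoters). A match is a description of letters and not of a bound site.

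S100a8 and S100a9 were the calprotectin transcripts and gave most of the members' counts. In the AngII model the S100a8 level was 41.5 and 43.4 normalized CPM before CMG (528 and 257 counts) and 33.9 and 31.0 after (212 and 419 counts). For S100a9 the AngII values were 136 and 128 before and 114 and 103 after (1726, 756, 713 and 1396 counts). Both genes were thus lower in both AngII libraries after CMG than in both before. The log2 change was −0.37 (SE 0.30) for S100a8 and −0.26 (SE 0.33) for S100a9. This direction depended on the scaling: with the total counts outside hemoglobin the changes were 0.01 and 0.11.

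In the DOCA–HS model the replicates of each time differed more in normalized CPM than the times did. The S100a8 level was 20.1 and 85.2 normalized CPM before CMG and 23.1 and 167 after (363, 803, 301 and 238 counts). For S100a9 the DOCA–HS values were 61.1 and 225 before, and 90.9 and 287 after (1104, 2117, 1184 and 408 counts). In both genes, at both times, replicate 2 was the high library on this scale, and the 2 times overlapped. Per library total, S100a9 after CMG was instead at 131 CPM in replicate 1 and 98.3 in replicate 2. The group mean of S100a9 was 143 ± 116 before and 189 ± 138 after (SD, n = 2). The log2 change was 0.85 (SE 0.95) for S100a8 and 0.40 (SE 0.79) for S100a9. Without after replicate 2 these were −1.18 and −0.65, and scaled to library totals −0.59 and −0.70, so the calprotectin genes had no stable direction in DOCA–HS blood.

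**Figure D1:**
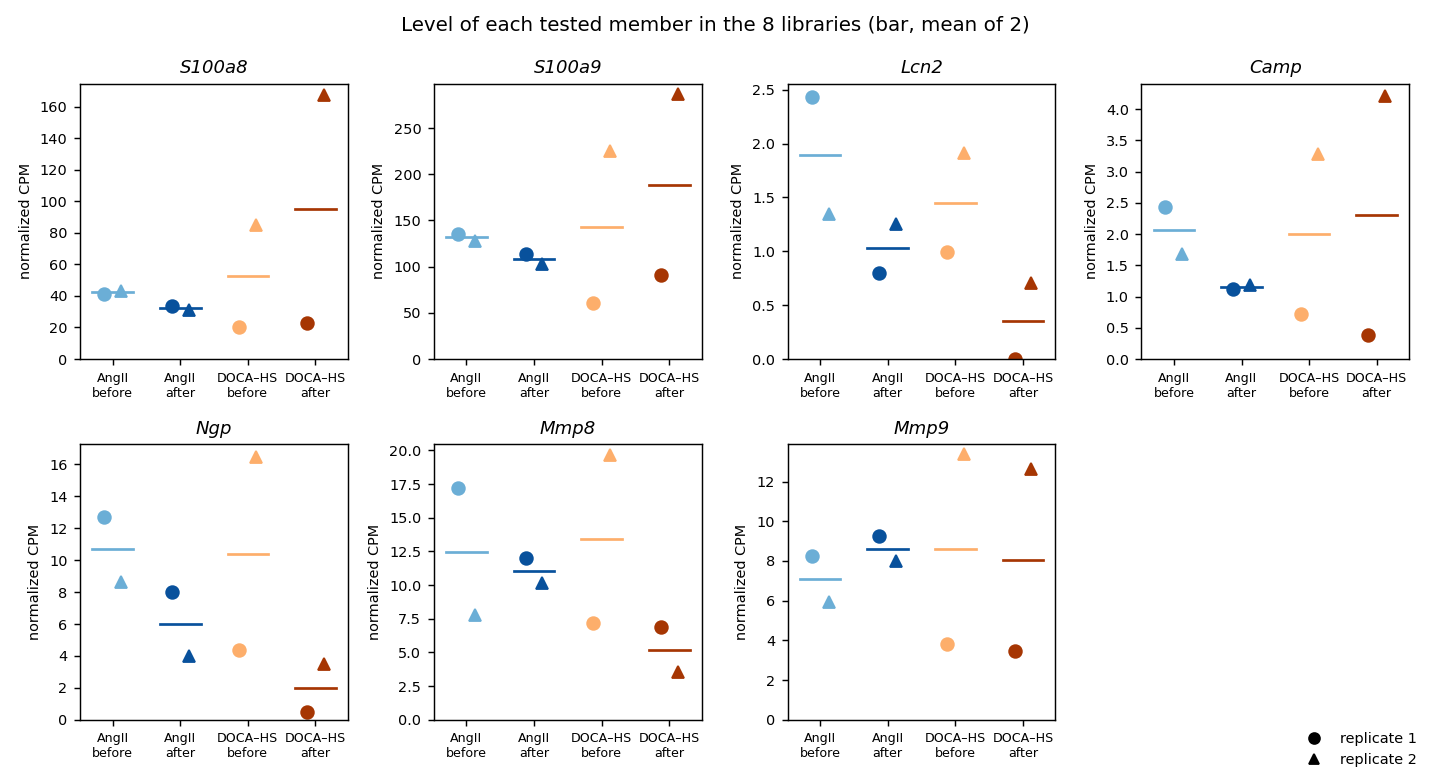
Level of each of the 7 tested members in the 8 libraries, in normalized CPM on a linear axis from 0 that differs between panels; circles are replicate 1, triangles replicate 2, and bars the mean of 2 libraries. Ngp was at 0.461 and 3.51 in DOCA–HS blood after CMG, below 4.37 and 16.5 before, while S100a8 ranged from 20.1 to 167 within the DOCA–HS model.

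The azurophil granule genes were close to absent. Mpo, which encodes myeloperoxidase, had 1 and 0 counts before and 0 and 1 after CMG in AngII blood, and 3 and 0 before and 0 and 1 after in DOCA–HS blood. Elane, which encodes neutrophil elastase, had 2, 2, 1 and 6 counts in the 4 AngII libraries and 0, 1, 1 and 1 in the 4 DOCA–HS libraries, before then after. Ltf, the lactoferrin gene of the specific granules, had a single count, in AngII before replicate 2. These 3 members did not pass the filter and have no fold change. A count of 0 allows a level of up to 0.166 to 2.11 normalized CPM, depending on the library (3 counts, covering counting error only). Related genes of early precursors were equally scarce: Prtn3 and Prss57 had no count in any library, Ctsg and Bpi had 1 each. None of the 5 progenitor markers in the counts passed the filter, and they summed to between 1 and 17 counts in a library.

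Ngp, which encodes neutrophilic granule protein, a cathelicidin-related protein of the specific granules, had the next to lowest change of the 7 tested members in DOCA–HS blood. The DOCA–HS counts were 79 and 155 before treatment and 6 and 5 after it, or 4.37 and 16.5 normalized CPM before and 0.461 and 3.51 after. Both libraries after CMG were below both before, though after replicate 2 lay close to before replicate 1. The log2 change was −3.27 (SE 1.05). On the counts summed over the pair of libraries of each time, the ratio of after to before was 0.0895 (95% exact interval 0.0441 to 0.163). Such intervals cover counting error only. In AngII blood Ngp had 162 and 51 counts before and 50 and 54 after, or 12.7 and 8.61 normalized CPM before and 7.99 and 3.99 after. The groups did not overlap there on this scale, with a log2 change of −0.86 (SE 0.41) and a count ratio of 0.46 (95% exact interval 0.36 to 0.585). Ngp kept its sign in all 12 alternatives tried in the DOCA–HS model (−4.44 to −1.56), where the smallest change was found without after replicate 1, and in all 13 in the AngII model (−1.44 to −0.43).

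Lcn2 encodes lipocalin 2, which binds bacterial siderophores and thereby withholds iron. Its counts in DOCA–HS blood were 18 and 18 before CMG and 0 and 1 after, or 0.996 and 1.91 normalized CPM before and 0 and 0.703 after. The log2 change was −4.02 (SE 1.42), a value that rests on 1 count. In after replicate 2 even a count of 0 allows up to 2.11 normalized CPM, more than either level before CMG, so that library cannot show Lcn2 to be lower, and the low value is that of after replicate 1. On summed counts the ratio was 0.0529 (95% exact interval 0.0013 to 0.314), and without after replicate 1 the log2 change was −0.98. In AngII blood Lcn2 had 31 and 8 counts before and 5 and 17 after, or 2.44 and 1.35 normalized CPM before and 0.799 and 1.26 after. These groups were separate by a narrow margin, and the log2 change was −0.86 (SE 0.54).

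Mmp8 encodes neutrophil collagenase, a specific granule protease that cleaves fibrillar collagen. The DOCA–HS counts were 130 and 185 before treatment and 90 and 5 after it, or 7.19 and 19.6 normalized CPM before and 6.91 and 3.51 after. Here the low library was after replicate 2, whereas after replicate 1 differed little from before replicate 1. The log2 change was −1.22 (SE 0.61), and −0.31 without before replicate 2. In AngII blood Mmp8 was at 17.2 and 7.77 normalized CPM before and 12 and 10.1 after (219, 46, 75 and 137 counts), so the times overlapped, with a log2 change of −0.19 (SE 0.41) that turned to 0.50 without before replicate 1.

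Camp encodes the cathelicidin antimicrobial peptide. In AngII blood it was at 2.44 and 1.69 normalized CPM before CMG and 1.12 and 1.18 after (31, 10, 7 and 16 counts), a separation with a log2 change of −0.85 (SE 0.48). In DOCA–HS blood it was at 0.719 and 3.29 before and 0.384 and 4.22 after (13, 31, 5 and 6 counts), with full overlap and a log2 change of −0.80 (SE 1.21) that became 0.02 with DESeq2 and 1.16 without after replicate 1. In after replicate 2 these levels rest on few counts for Camp as for Ngp (6 and 5).

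Mmp9, the gelatinase granule member, encodes a protease that cleaves denatured and basement membrane collagen. It was at 8.25 and 5.91 normalized CPM before CMG and 9.27 and 7.98 after in AngII blood (105, 35, 58 and 108 counts). The DOCA–HS values were 3.82 and 13.4 before and 3.46 and 12.7 after (69, 126, 45 and 18 counts). The times overlapped in both models. The log2 change was 0.28 (SE 0.31) in the AngII model and −0.30 (SE 0.79) in the DOCA–HS model.

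Counted over the 7 tested members, 6 were below 0 after CMG in the AngII model (median −0.37, against −0.01 over 7201 genes) and 5 in the DOCA–HS model (median −0.80, against −0.04 over 7720 genes). Both libraries after CMG were lower than both before for 5 members in the AngII model (S100a8, S100a9, Lcn2, Camp and Ngp), where 18.6% of all genes had this order. Per total counts outside hemoglobin, or per library total, it held for 0 members in the AngII model. As CPM of the counts outside hemoglobin, Ngp was at 36.1 and 22.2 before and 22.8 and 17.3 after. In normalized CPM the same order held in the DOCA–HS model for 3 members (Lcn2, Ngp and Mmp8), and for 21.1% of all genes. Those 3 kept this order on the other scales, joined by Mmp9 per library total. The share of all genes was computed in normalized CPM only, so the counts of members on the other scales have no comparison. The DOCA–HS median over all genes was −0.76 with library totals and −0.41 with totals outside hemoglobin. The study called a gene changed at an absolute log2 fold change above 1.5 with an unadjusted p of at most 0.05. By that criterion 0 members were lower in the AngII model, where 0.333% of genes were. By the same criterion 2 were in the DOCA–HS model, Ngp and Lcn2, where 0.259% of genes were. The unadjusted p alone was reached, in either direction, by 6.65% of genes in the AngII model (0 members) and 3.17% in the DOCA–HS model (2 members). Since the members were chosen with these changes known, nothing is read from these counts. Scaled to totals outside hemoglobin, the AngII median was 0.01. The median of the members in the DOCA–HS model was −0.09 with DESeq2 and turned positive without before replicate 2 (0.74) and without after replicate 1 (0.57).

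**Figure D2:**
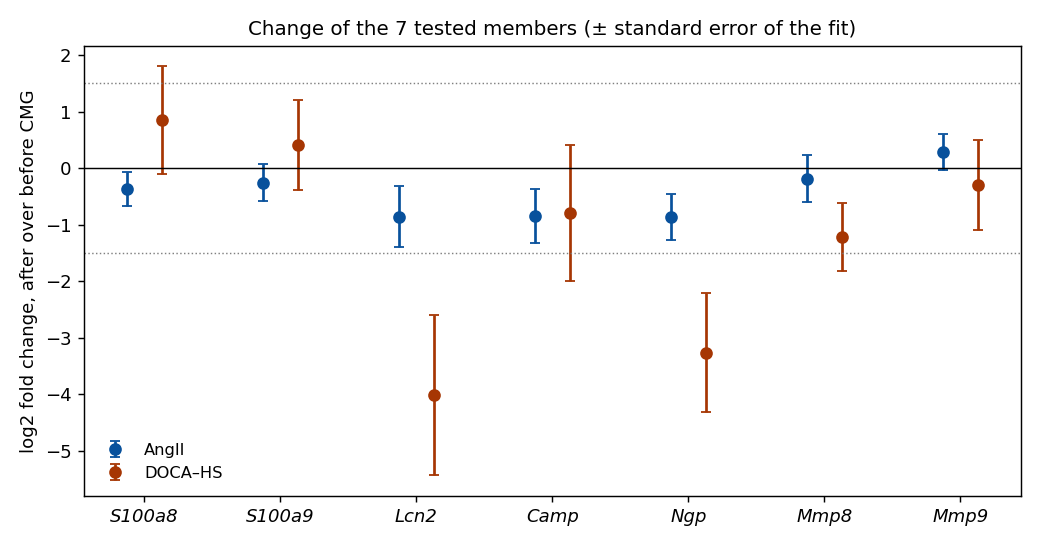
Change after over before CMG of the 7 tested members on the log2 scale, with bars for the standard error of the fit; blue is the AngII model, brown the DOCA–HS model, and dotted lines stand at 1.5 above and below 0. Only Lcn2 (−4.02) and Ngp (−3.27) in the DOCA–HS model lie past the dotted line.

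The replicates of the DOCA–HS model differed severalfold in the normalized CPM of calprotectin. The members were therefore also expressed per 100 S100a9 counts of the same library. This measure does not depend on library scaling and was chosen after the values had been seen. Before CMG, Ngp stood at 7.16 and 7.32 per 100 S100a9 counts in DOCA–HS blood, so the replicates that had differed in normalized CPM were close on this measure. After CMG it was 0.507 (95% exact interval 0.186 to 1.11) and 1.23 (0.396 to 2.88). These intervals cover counting error in each library and do not judge the difference between the times. Set against the surface marker genes described below instead, Ngp was at 1.78 and 5.67 per 100 marker counts before and 0.144 and 4.59 after, so the times overlapped and the separation depended on the denominator. In AngII blood Ngp was at 9.39 and 6.75 per 100 S100a9 counts before and 7.01 and 3.87 after, with overlap. Per 100 marker counts it was at 5.38 and 4.42 before and 2.78 and 1.43 after there, without overlap. Per 100 S100a9 counts in DOCA–HS blood, Lcn2 was at 1.63 and 0.850 before and 0 and 0.245 after, without overlap. Mmp8 was at 11.8 and 8.74 before and 7.60 and 1.23 after. Mmp9 was at 6.25 and 5.95 before and 3.80 and 4.41 after, also without overlap. In AngII blood, by contrast, Mmp9 was higher after CMG, at 8.13 and 7.74 against 6.08 and 4.63. Camp in DOCA–HS blood overlapped, at 1.18 and 1.46 before and 0.422 and 1.47 after. S100a9 is itself a member, and the share of all genes without overlap was not computed for either denominator. Nothing is therefore read from these orders.

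**Figure D3:**
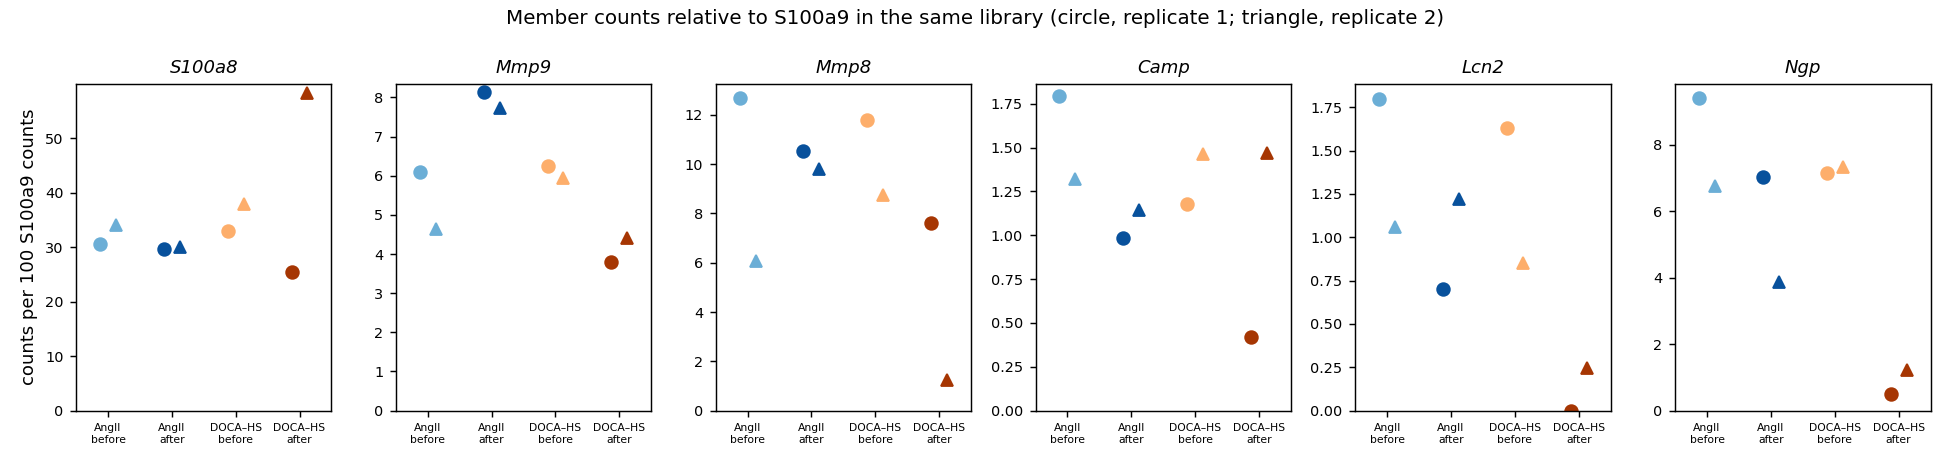
Counts of 6 members per 100 counts of S100a9 in the same library, on linear axes from 0 that differ between panels; circles are replicate 1, triangles replicate 2. Ngp was at 7.16 and 7.32 in DOCA–HS blood before CMG and at 0.507 and 1.23 after, while S100a8 was at 25.4 to 37.9 in 7 libraries and 58.3 in DOCA–HS after replicate 2.

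The specific granule genes together (Ltf, Lcn2, Camp, Ngp and Mmp8) gave 16.4 and 13.3 counts per 100 calprotectin counts in DOCA–HS blood before CMG and 6.80 and 2.63 after. Per 100 surface marker counts the same genes gave 5.41 and 14.2 before and 2.42 and 15.6 after, the last being the highest of the 8 libraries, so this order too depended on the denominator. In AngII blood the same ratio was 19.7 and 11.5 before and 14.8 and 12.3 after, so the times overlapped. Within calprotectin, S100a8 was at 25.4 to 37.9 per 100 S100a9 counts in 7 of the 8 libraries and at 58.3 in DOCA–HS after replicate 2.

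Whether the blood held fewer neutrophils can be looked at through 12 surface marker genes of mature neutrophils that were in the counts. They summed to 237 and 195 normalized CPM before and 288 and 280 after CMG in AngII blood. In DOCA–HS blood the sums were 245 and 290 before, and 320 and 76.6 after. One of the 12, Cxcr1, was at 0 in every library. After replicate 1 therefore combined the highest marker sum with the lowest Ngp, whereas after replicate 2 had only 109 marker counts beside 646 calprotectin counts. Calprotectin amounted to 593 per 100 surface marker counts in that library, against 33.1 to 107 in the other 7, and Cybb, a subunit of the phagocyte oxidase, was at 0 there. The part of this shift in the members' values was not tested. Without that library the log2 change of Ngp was −4.44, while Lcn2 had 0 counts in the library that remained.

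**Figure D4:**
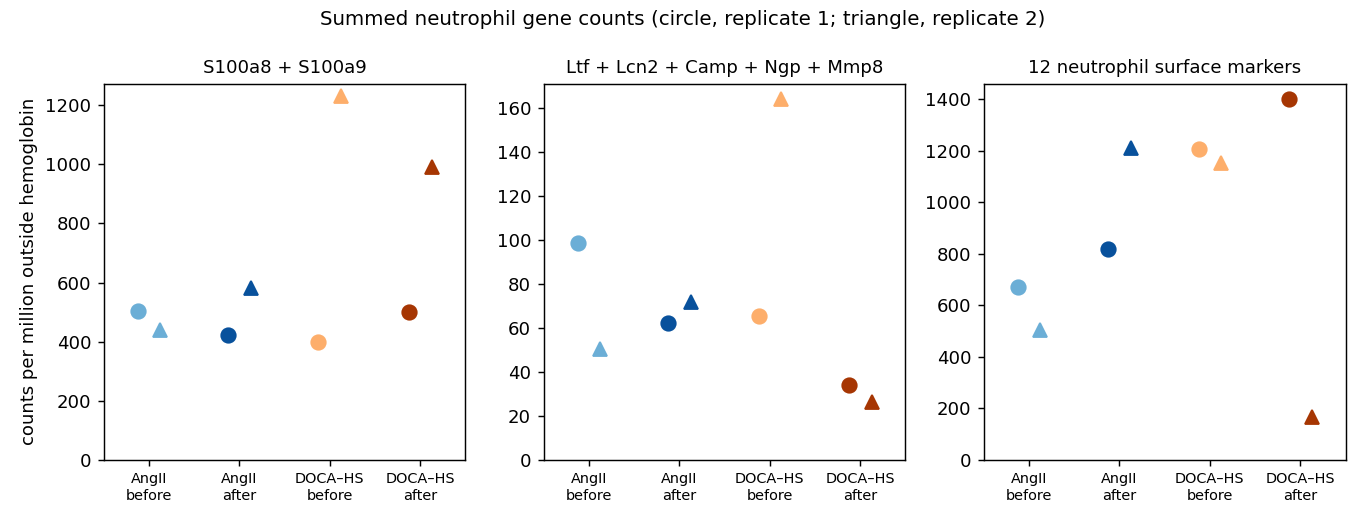
Summed counts of the calprotectin genes, of 5 specific granule genes and of 12 neutrophil surface markers, as CPM of the counts outside the 2 hemoglobin genes, in each library; circles are replicate 1, triangles replicate 2. In DOCA–HS blood after CMG the specific granule sum was 33.9 and 26.1, below 65.4 and 164 before, while the surface markers stood at 1400 in one library and 167 in the other.

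In the AngII model 7 of 10 tested surface markers were above 0 (median 0.61), in the opposite direction to the 6 of 7 members that were below. Unadjusted p-values of at most 0.05 (edgeR) were reached by 4 that were higher, Itgam (1.19), Clec4d (1.06), Clec4e (0.81) and Cxcr2 (0.76), and by 1 that was lower, Il1r2 (−1.17, SE 0.34), a decoy receptor for interleukin 1. These 5 were named after their values were seen, and no adjusted p was under 0.05 (edgeR, Il1r2 adjusted p = 0.628). In the DOCA–HS model 7 of 9 were below 0 (median −0.09) and none reached that p.

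Most transcription factors that act on granule genes lay above 0 while most members lay below, and a link between them was not tested. Of 7 regulators tested, 5 were above 0 in the AngII model (median 0.85) and 6 in the DOCA–HS model (median 0.38). Cebpd and Spi1, which encodes PU.1, reached an unadjusted p of at most 0.05 in the AngII model, with log2 changes of 1.44 (SE 0.36) and 0.85 (SE 0.30), but adjusted p-values of 0.628 and 0.659 (edgeR). Cebpe, which encodes C/EBP-epsilon, had 8, 3, 8 and 17 counts in AngII blood and 23, 3, 14 and 2 in DOCA–HS blood, before then after. Its log2 change was 1.12 (SE 0.62) and 0.38 (SE 0.82).

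Of 26 other granule genes 24 were in the counts and 11 were tested. In the AngII model 4 were below 0 and 7 above (median 0.23). Slc11a1, a metal ion transporter, and Cybb were higher at the unadjusted threshold, at 0.88 and 0.91 (edgeR adjusted p = 0.719 and 0.713). In the DOCA–HS model 6 were below and 5 above (median −0.05), and none reached the threshold in either direction. Lyz2, the lysozyme gene that neutrophils share with monocytes, had a log2 change of 0.23 (SE 0.37) and −0.22 (SE 0.63).

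Among the inhibitors and receptors of granule proteins, 4 of 6 were above 0 in the AngII model (median 0.32) and 4 of 7 in the DOCA–HS model (median 0.51), none past the unadjusted threshold. Cd36, Lrp1 and Slpi had the highest mean normalized CPM, which without transcript lengths does not rank their abundance. Slpi, which encodes an inhibitor of elastase, changed by 0.63 (SE 0.33) and 1.33 (SE 0.62). The 4 other S100 genes tested, S100a4, S100a6, S100a10 and S100a11, were all above 0 in the AngII model (0.12 to 0.26). S100a4 changed in the DOCA–HS model by 1.36 (SE 0.59, edgeR adjusted p = 0.997) and the others by −0.03 to 0.62.

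Markers of other blood cells moved as follows after CMG, with no adjusted p under 0.05 (edgeR). All 8 T cell markers (median −0.38) and all 5 B cell markers (−0.96) were below 0 in the DOCA–HS model. All 5 platelet markers were above 0 there (median 1.26), with Pf4 (1.72) and Treml1 (1.92) past the study's criterion. Monocyte markers had a median of 0.42 in the DOCA–HS model and 0.69 in the AngII model, and NK cell markers 0.53 and 1.17, with Klrb1a (1.77) past the criterion in the AngII model. T and B cell markers had medians of −0.40 and 0.15 in the AngII model, platelet markers −0.35, and erythroid markers −0.66 against 0.48 in the DOCA–HS model. Of the eosinophil, mast cell and basophil markers, 1 or none passed the filter in each list and model. The part of these shifts in the members' values was not tested.

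The models were also compared directly, in 1 fit of all 8 libraries. These comparisons share libraries with those that chose the members and are not independent of them. Before CMG the DOCA–HS to AngII log2 differences of the 7 members ran from −0.49 (Lcn2, SE 0.66) to 0.31 (S100a8, SE 0.81), with a median of 0.07 against 0.06 over 7994 genes. All adjusted p-values were 0.999 (edgeR), and 0 members were lower by the criterion, as were 0.413% of genes. Ngp differed by −0.07 (SE 0.67). Of all genes 0% passed the adjusted threshold in edgeR, with 270 at an unadjusted p of at most 0.05 and 2 by DESeq2. Among the other lists, Il1r2 (−1.54, SE 0.57) and the granule membrane gene Cd63 (−1.97, SE 0.82) were past the criterion, both at an adjusted p of 0.992 (edgeR).

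After CMG, DOCA–HS blood had lower Lcn2 (log2 difference −3.62, SE 1.30) and Ngp (−2.54, SE 0.98) than AngII blood by the criterion, which 0.313% of genes passed in this direction. Their adjusted p-values were 1 (edgeR). Lcn2, Ngp and Mmp8 (−0.94, SE 0.58) were lower in both DOCA–HS libraries than in both AngII libraries, an order that 15.9% of genes had and that for Lcn2 meets the same floor in after replicate 2. S100a8 lay on the other side at 1.53 (SE 0.83), S100a9 at 0.79 (SE 0.66), and Camp at −0.10 (SE 1.07). The median of the 7 members was −0.37, against −0.04 over all genes. In edgeR 0% of genes passed the adjusted threshold, with 223 at an unadjusted p of at most 0.05 and 1 by DESeq2. Among the other lists, the eosinophil marker Prg2 was past the criterion (−2.81, SE 1.26). It had 11 and 7 counts in AngII blood and 2 and 0 in DOCA–HS blood. Without the filter on low counts, 38 of 11692 genes had an adjusted p under 0.05 (edgeR). Ngp was among them (0.0227, log2 difference −2.55). It was listed with a low level after treatment in these libraries already known, so nothing is read from that value.

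The change after CMG itself differed between the models by −3.14 (SE 1.51) for Lcn2 and −2.47 (SE 1.20) for Ngp, the DOCA–HS change being the lower one, with an adjusted p of 0.881 for both (edgeR). For the other 5 members the difference ran from −1.01 (Mmp8, SE 0.79) to 1.22 (S100a8, SE 1.15). None was lower by the criterion, as were 0.913% of genes, and 0% of genes passed the adjusted threshold in edgeR, with 299 at an unadjusted p of at most 0.05 and 1 by DESeq2. Of the regulators, Cebpd was past the criterion (−1.77, SE 0.74, edgeR adjusted p = 0.881). So was the B cell marker Ms4a1 (−1.78, SE 0.75, edgeR adjusted p = 0.881). A different effect of treatment on the members in the 2 models was therefore not established with 2 libraries per group.

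Across the 8 libraries, centred within each model, the members did not all follow each other. S100a8 and S100a9 had a Pearson r of 0.98 on log2 CPM, S100a8 and Camp 0.94, and Lcn2 and Ngp 0.92, while S100a8 and Mmp8 had −0.12, the lowest of all pairs. The median over pairs was 0.56. Outside the members, the 10 genes most like their mean were Pabpc1 (r = 0.94), Yod1 (0.92), Phka1 (0.92), Mtrf1l (0.91), Vcp (0.90), MGC95210 (0.90), Mul1 (0.90), Cmc1 (0.89), Ckap4 (0.88) and Tmem110 (0.88). They come from 7396 genes compared, whose median r was −0.12. These correlations share library depth and rest on 8 points, so they are a description. No surface marker of neutrophils was among the 10.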

How the data were processed

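Total RNA of rat whole blood was sequenced as 8 libraries, 2 in each of 4 groups. Per the study's methods and the submitters' processing notes, the authors checked reads with FastQC, aligned them to rn6 with HISAT2 and deposited whole-number counts per gene from HTSeq, with reverse-strand counting in the intersection non-empty mode. Hemoglobin annotations are said to have been removed, yet 2 hemoglobin genes hold most counts. The labels name a library kit without stating strand. All columns of the counts were used (columns left out: 0). The authors' own comparisons were not used.

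Genes were filtered with filterByExpr, scaled by TMM and tested with the edgeR 4.0.16 quasi-likelihood test in R 4.3.3 (limma 3.58.1), with Benjamini-Hochberg adjustment over all genes tested and a prior count of 2 for log2 CPM. After versus before was fitted on the 4 libraries of each model, and the 3 comparisons between models on all 8. DESeq2 1.42.0, other scalings and filters, a replicate block and leaving out each library were alternatives. The fits were tested on simulated data.

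The members and gene lists were chosen with earlier results of these data known. All members are named, and from other lists the genes past the study's criterion, or in some lists the 3 with the highest mean normalized CPM. The ratio to S100a9 and the promoters shown were chosen after seeing the data. Of 137 list genes, 126 were in the counts. Promoters are from RefSeq (GRCr8), not the build of the counts.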

Additional observations from a re-analysis of the deposited data

How the results depend on the processing

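With 2 libraries per group, 1 library decided many values. After CMG in the DOCA–HS model, the members lower by the study's criterion (2) were 0 with at least 10 counts in every library, where only 3 members were tested, and 1 to 3 when each library was left out in turn. Their median (−0.80) ran from −1.53 to 0.74, positive without DOCA–HS before replicate 2 and after replicate 1. For DOCA–HS against AngII blood before CMG, the median (0.07) ran from −1.13, without DOCA–HS before replicate 2, to 0.66. After CMG, the count of 2 was 0 with at least 10 counts in every library, 1 with only the 4 libraries compared, and 1 to 2 leaving out a library, while the median (−0.37) ran from −1.31 to 0.54. For the difference of the change, the count of 0 was 1 with library totals, 2 with totals outside hemoglobin, 2 without the filter, 1 with the replicate block and 0 to 2 leaving out a library. Its median (−0.62) was −1.79 with library totals and ran from −1.37 to 0.61 leaving out a library. Ngp, Lcn2 and Mmp8 kept their sign in all 12 alternatives after CMG in the DOCA–HS model.

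Same-numbered libraries deviated together (correlation 0.41 for AngII, 0.31 for DOCA–HS), but with 2 pairs and no shared source in the labels they were not taken as pairs. With the replicate block Ngp changed by −2.75, Lcn2 by −3.57 and Mmp8 by −1.0 in the DOCA–HS model, and the AngII model went from 0 genes with an adjusted p under 0.05 (edgeR, 479 at an unadjusted p of at most 0.05, 3 by DESeq2) to 165, and to 51 without the filter. Library totals moved the median of all genes to 0.36 (AngII) and −0.76 (DOCA–HS), and the DOCA–HS genes past the criterion from 20 lower and 138 higher to 9 and 0. Totals outside hemoglobin gave 12 and 20. Depth limited DOCA–HS after replicate 2, where a count of 0 allows up to 2.11 normalized CPM, more than Lcn2 had in either DOCA–HS library before CMG.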
